A study of Mus musculus with 20 samples.

Results

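Hspa2, Hspa1l and Hspa4l, genes of the HSP70 family that are known for high expression in male germ cells, were followed in mouse testis after heat shock. Every probe set of the array that its annotation assigns to 1 of these 3 genes alone was taken, so the members are 3 of 18193 genes with such a probe set. They gave 7 of 34945 single-gene probe sets, out of 45101 probe sets in all. Hspa2 and Hspa1l had 1 probe set each and Hspa4l had 5. Only testis was measured, so their level against other tissues was not analysed here. Whole testes of C57BL/6 and AKR/N mice, both inbred and aged 8 weeks, gave the RNA, which was read on an Affymetrix array of the mouse genome. In each strain 1 group was an unheated control and 4 groups were taken 8, 10, 12 or 24 h after a heat shock of 15 min at 43 °C. With 2 arrays per group, the 10 groups make 20 arrays. The controls carry no time of their own, so heat and time of sampling cannot be told apart in a comparison with them. The labels do not say that replicates came from separate animals, so the p-values measure only how far these samples spread, and that spread may be technical.

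HSP70 proteins bind unfolded stretches of other proteins and release them in a cycle driven by ATP. J-domain proteins deliver clients to them, and nucleotide exchange factors, among them the HSP110 branch of the family, reopen the cycle. HSPA2 is the HSP70 of spermatocytes, where it goes with the synaptonemal complex and is needed to activate CDK1 at the end of meiotic prophase; male mice without it are sterile. HSPA1L is a constitutive HSP70 of spermatids, and HSPA4L is an exchange factor of the HSP110 branch. The stress-inducible genes Hspa1a and Hspa1b are, by contrast, driven by heat shock factor HSF1 through heat shock elements in their promoters.

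The 250 bases upstream of the start of each of the 3 genes are set beside those of the inducible Hspa1a, and are given from RefSeq on the build GRCm38.p6. All 3 members were matched. Each sequence runs 5′ to 3′ on the gene's own strand and ends at the base before the start. The Hspa2 window is chr12:76404120-76404369 on the plus strand, that of Hspa1l is chr17:34972453-34972702 on the plus strand, and that of Hspa4l is chr3:40745363-40745612 on the plus strand. The Hspa1a window is chr17:34972157-34972406 on the minus strand, and Hspa1a and Hspa1l are neighbours that point away from each other. Capitals mark matches on either strand to the heat shock element GAANNTTC or TTCNNGAA, to TGACG, the short form of the cAMP response element TGACGTCA, in which it is contained, and to CCAAT.
Hspa2: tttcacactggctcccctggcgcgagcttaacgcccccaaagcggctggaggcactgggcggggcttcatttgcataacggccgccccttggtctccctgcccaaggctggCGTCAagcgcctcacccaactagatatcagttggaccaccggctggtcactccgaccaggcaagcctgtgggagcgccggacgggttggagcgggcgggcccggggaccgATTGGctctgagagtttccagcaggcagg
Hspa1l: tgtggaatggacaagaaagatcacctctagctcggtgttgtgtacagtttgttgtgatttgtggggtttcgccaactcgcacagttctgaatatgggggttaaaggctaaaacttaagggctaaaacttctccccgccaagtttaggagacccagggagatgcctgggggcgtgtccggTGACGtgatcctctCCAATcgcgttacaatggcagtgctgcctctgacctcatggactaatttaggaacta
Hspa4l: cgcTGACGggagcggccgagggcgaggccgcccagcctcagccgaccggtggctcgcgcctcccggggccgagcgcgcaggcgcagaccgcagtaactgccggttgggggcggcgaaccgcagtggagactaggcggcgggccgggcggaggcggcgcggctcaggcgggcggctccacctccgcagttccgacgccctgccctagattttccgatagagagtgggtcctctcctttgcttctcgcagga
Hspa1a: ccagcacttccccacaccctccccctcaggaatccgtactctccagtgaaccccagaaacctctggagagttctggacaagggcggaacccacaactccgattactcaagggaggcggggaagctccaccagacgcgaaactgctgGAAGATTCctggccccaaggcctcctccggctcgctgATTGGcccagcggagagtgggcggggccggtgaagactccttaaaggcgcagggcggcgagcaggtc
GAANNTTC was found once in the Hspa1a window, 104 bases upstream of the start, and neither form of the heat shock element was found in the 3 member windows. By the coordinates, the Hspa1a and Hspa1l windows both lie between the starts of these neighbours. The Hspa1a element therefore also lies upstream of Hspa1l, beyond its window of 250 bases. Either form occurs in 12.8% of 32851 promoter windows of this length. TGACG lay 139 bases upstream in Hspa2, 71 bases upstream in Hspa1l and 247 bases upstream in Hspa4l, and occurs in 17.8% of windows. CCAAT, which occurs in 33.8% of windows, lay 29 bases upstream in Hspa2, 57 in Hspa1l and 67 in Hspa1a, and was not found in Hspa4l. TGACGTCA (1.55% of windows) and TATAA (22.8%) were found in none of the 4 windows. The GC box GGGCGG, left in lower case, was found 3 times in Hspa2, 4 times in Hspa4l, 3 times in Hspa1a and not in Hspa1l (32.7% of windows hold it), and the GC content was 66% in Hspa2, 49.6% in Hspa1l, 73.6% in Hspa4l and 63.2% in Hspa1a. A match is a description of the letters and not evidence of a bound factor.

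Changes are differences of group means of log2(signal + 16), with the standard error (SE) of a limma fit to all 20 arrays, and a probe set was called at an adjusted p under 0.05 over 28000 probe sets tested. Signals of different probe sets are not compared as levels, since each probe set reads its transcript with its own strength. Replicate arrays correlated with r from 0.963 to 0.984 over the tested probe sets, which are not independent replicates. In whole testis, fewer cells of a type and less RNA per cell cannot be told apart. A pair of arrays stood apart. C57BL/6 12 h replicate 2 had the highest array median, 34.9 against 24.9 in the lowest array, and the highest ratio of 3′ to 5′ actin probe sets (3.57, with the lowest array at 1.87), a sign of how intact the RNA was. That ratio also moved with the groups: in C57BL/6 it was 2.14 and 2.46 in controls, 2.04 and 2.0 at 8 h, 2.45 and 2.37 at 10 h, 2.52 and 3.57 at 12 h, and 2.84 and 2.58 at 24 h. In AKR/N it was 2.92 and 2.39 in controls, from 1.87 to 1.99 at 8 and 10 h, 2.74 and 2.62 at 12 h, and 2.14 and 2.17 at 24 h. The C57BL/6 arrays of 12 and 24 h thus lay above both their controls, and the AKR/N arrays of 24 h below theirs. AKR/N control replicate 2 had a Hspa1a signal of 383 against 85.2 in the other control of that strain. The main results of the times and groups they belong to are also given without them.

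Hspa2 was lower at every time after heat in both strains, most at 24 h, when it stood at 46.4% of control in C57BL/6 and at 56.0% in AKR/N. In C57BL/6 the Hspa2 signals (probe set 1417101_at) of the replicates were 2199 and 2351 in controls, 1747 and 2156 at 8 h, 1527 and 1122 at 10 h, 1277 and 1825 at 12 h, and 1019 and 1074 at 24 h. In AKR/N they were 2563 and 2478 in controls, 2131 and 2090.1 at 8 h, 1834 and 1920 at 10 h, 1663 and 1703 at 12 h, and 1503 and 1310 at 24 h. All 8 heated arrays lay below both controls in each strain, and replicates were far apart in C57BL/6 at 10 and 12 h. In C57BL/6 Hspa2 fell by 0.67 on the log2 scale as the mean of the 4 times (SE 0.14, adjusted p = 0.00663), where 15.9% of all probe sets tested were called and 7.46% were called lower. By time, the difference was −0.23 at 8 h (SE 0.18, adjusted p = 0.848), and it fell by 0.79 at 10 h (SE 0.18, adjusted p = 0.0205), by 0.57 at 12 h (SE 0.18, adjusted p = 0.0490) and by 1.11 at 24 h (SE 0.18, adjusted p = 0.00044). The backgrounds of called probe sets for these times were 0.0893%, 7.2%, 14.6% and 31%. The 24 h level was also below the mean of the earlier heated times, by a contrast that uses no control array (−0.58, SE 0.15, adjusted p = 0.0122, with 22.3% of probe sets called).

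In AKR/N Hspa2 fell by 0.84 at 24 h (SE 0.18, adjusted p = 0.00717, with 18.2% of probe sets called). The mean of the 4 times did not pass the test, at −0.52 (SE 0.14, adjusted p = 0.0575, with 3.9% called), nor did 8 h at −0.25 (adjusted p = 0.651), 10 h at −0.42 (adjusted p = 0.221) or 12 h at −0.58 (adjusted p = 0.0778), each with an SE of 0.18. At 24 h against the earlier times the difference was −0.42 (SE 0.15, adjusted p = 0.0608). The 24 h call in C57BL/6 held without any single array, while that in AKR/N was lost without AKR/N 24 h replicate 2 (−0.74, adjusted p = 0.0821) and held without AKR/N control replicate 2 (−0.86, adjusted p = 0.0340). The C57BL/6 12 h call was lost without any of 17 of the 20 arrays, the 10 h call without C57BL/6 10 h replicate 2 (−0.57, adjusted p = 0.163) or either C57BL/6 control (adjusted p = 0.0920 and 0.124), the mean without either C57BL/6 control (adjusted p = 0.0565 and 0.101), and the contrast with earlier times without either C57BL/6 24 h array (adjusted p = 0.125 and 0.0658). The 12 h difference was −0.83 without C57BL/6 12 h replicate 2, the array that stood apart (adjusted p = 0.0219), and −0.32 without replicate 1 (adjusted p = 0.278). In C57BL/6 the actin ratio was above both controls at 12 and 24 h and below both at 8 h. In AKR/N it was below both controls at 8, 10 and 24 h. Its part in the Hspa2 changes was not tested.

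**Figure D1:**
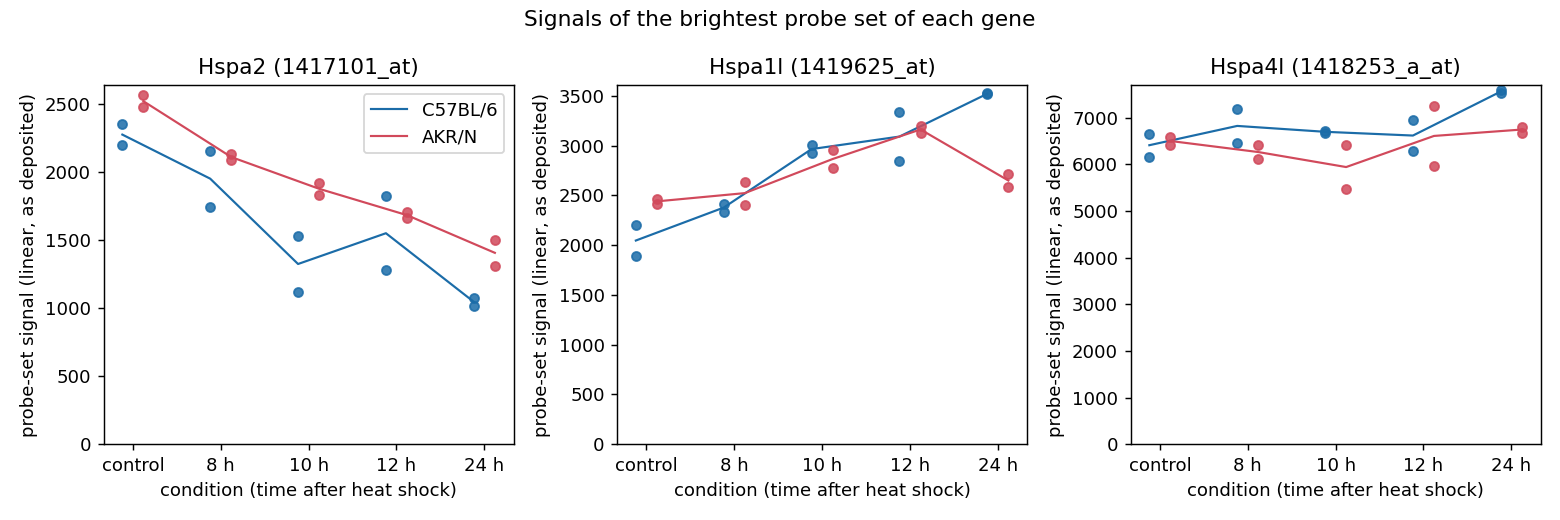
Signals of the brightest probe set of Hspa2, Hspa1l and Hspa4l (vertical axis, linear and from 0) in controls and at 8, 10, 12 and 24 h after heat shock. Points are the 2 arrays of a group and lines join group means for C57BL/6 and AKR/N. Hspa2 descends from 2199 or more in the controls to between 1019 and 1503 at 24 h, Hspa1l reaches 3513 and 3527 at 24 h in C57BL/6, and Hspa4l stays between 5468 and 7593.

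Hspa1l moved the other way in C57BL/6, where it rose with time to 1.72 times its control level at 24 h. Its C57BL/6 signals (1419625_at) were 1894 and 2198 in controls, 2337 and 2417 at 8 h, 2924 and 3005 at 10 h, 3332 and 2848 at 12 h, and 3527 and 3513 at 24 h. All 8 heated arrays lay above both controls, and the 24 h arrays lay above all others of that strain. The AKR/N signals were 2411 and 2468 in controls, 2638 and 2406 at 8 h, 2773 and 2956 at 10 h, 3127 and 3196 at 12 h, and 2710.5 and 2587 at 24 h. Here 7 of the 8 heated arrays lay above both controls, 1 array at 8 h lay below both, and the highest values were those at 12 h.

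In C57BL/6 Hspa1l rose by 0.53 as the mean of the 4 times (SE 0.10, adjusted p = 0.00318, with 8.45% of probe sets called higher). The difference at 8 h was 0.22 (adjusted p = 0.762), and it rose by 0.54 at 10 h (adjusted p = 0.0218), 0.59 at 12 h (adjusted p = 0.00751) and 0.78 at 24 h (adjusted p = 0.00038), each with an SE of 0.12. At 24 h 17.9% of all probe sets were called higher in that strain, and the median of all probe sets was 0.09. Hspa1l was higher at 24 h than at the earlier heated times by 0.33 (SE 0.10, adjusted p = 0.0307). In AKR/N no comparison of Hspa1l passed the test. The mean of the 4 times was 0.19 (SE 0.10, adjusted p = 0.290), with 0.05 at 8 h (adjusted p = 0.926), 0.23 at 10 h (adjusted p = 0.350), 0.37 at 12 h (adjusted p = 0.0971) and 0.12 at 24 h (adjusted p = 0.555). The C57BL/6 24 h call held without any single array and under each alternative scaling. Without C57BL/6 12 h replicate 2 the 12 h change was 0.70 (adjusted p = 0.0139). The 10 h call was lost without any 1 of the 4 arrays compared (adjusted p = 0.0602 to 0.173), and the mean and the 12 h call were lost without C57BL/6 control replicate 1 (0.42 with adjusted p = 0.0829, and 0.48 with adjusted p = 0.0772). The call at 24 h against earlier times was lost without any 1 of 5 C57BL/6 arrays, among them 12 h replicate 2 (0.30, adjusted p = 0.0529). With each array centred on its median, 10 h (0.52, adjusted p = 0.0985), 12 h (0.46, adjusted p = 0.0891) and 24 h against earlier times (0.24, adjusted p = 0.254) no longer passed. The actin ratio was above both controls at 12 and 24 h in C57BL/6 and below both at 24 h in AKR/N. Its part in the Hspa1l changes was not tested.

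Hspa1l lies between Hspa1a and Lsm2 on chromosome 17, and its course was unlike that of Hspa1a. In C57BL/6 Hspa1a (1452388_at), the heat-inducible HSP70, had signals of 80.8 and 64.9 in controls, 3467 and 3286 at 8 h, and 449 and 249 at 24 h, with changes of 5.26 at 8 h (SE 0.66, adjusted p = 0.00428) and 1.99 at 24 h (SE 0.66, adjusted p = 0.0354). In AKR/N Hspa1a was at 3359 and 2572 at 8 h and at 66.7 and 107 at 24 h. Between these times Hspa1a in C57BL/6 was at 1394 and 3070 at 10 h and at 783 and 3385 at 12 h. In AKR/N it was at 3137 and 3775 at 10 h and at 2108 and 1008 at 12 h. The Hspa1a group mean was therefore highest at 8 h in C57BL/6 and at 10 h in AKR/N. That of Hspa1l in C57BL/6 was highest at 24 h.

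**Figure D2:**
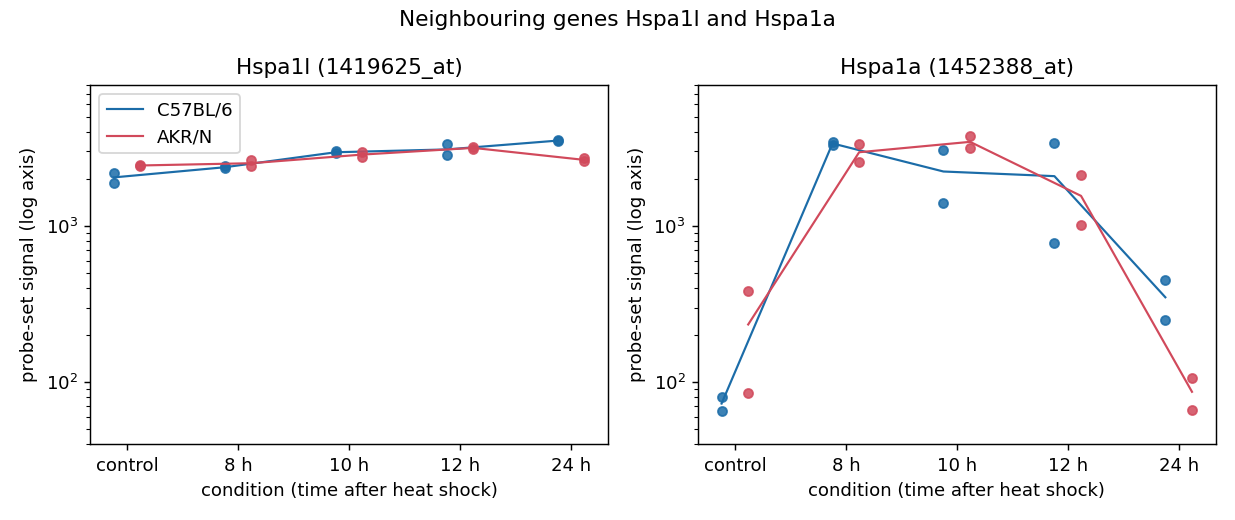
Signals of the neighbouring genes Hspa1l and Hspa1a on the same logarithmic vertical axis, in controls and at 8, 10, 12 and 24 h after heat shock. Points are single arrays and lines join group means for C57BL/6 and AKR/N; Hspa1a goes from 64.9 and 80.8 in C57BL/6 controls to 3286 and 3467 at 8 h, while Hspa1l in C57BL/6 goes from 1894 and 2198 to 2337 and 2417.

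The 5 probe sets of Hspa4l did not move together. The brightest, 1418253_a_at, did not pass the test in any comparison, while 1449010_at and 1429106_at fell in C57BL/6. It was brighter than 99.9% of probe sets, and the highest signal of an array ran from 10556 to 13125. Whether so bright a probe set responds less to a change was not tested. The signals of 1418253_a_at in C57BL/6 were 6161 and 6655 in controls, 7188 and 6454 at 8 h, 6722 and 6668 at 10 h, 6954 and 6276 at 12 h, and 7593 and 7523 at 24 h. In AKR/N they were 6421 and 6575 in controls, 6412.5 and 6110 at 8 h, 5468 and 6411 at 10 h, 5956 and 7257 at 12 h, and 6679 and 6808 at 24 h. Both C57BL/6 24 h arrays lay above every other array, and the other groups overlapped one another for the most part. The mean change was 0.11 in C57BL/6 (95% interval −0.12 to 0.34, adjusted p = 0.547) and −0.03 in AKR/N (−0.26 to 0.20, adjusted p = 0.907), and that at 24 h in C57BL/6 was 0.24 (−0.05 to 0.53, adjusted p = 0.205).

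The second probe set, 1449010_at, is annotated to the same transcript record as 1418253_a_at. Its C57BL/6 signals were 870 and 864 in controls, 719 and 761 at 8 h, 743 and 619.7 at 10 h, 655 and 507 at 12 h, and 422 and 448 at 24 h. All 8 heated arrays lay below both controls, and the 24 h arrays lay below all others. It fell by 0.53 as the mean of the 4 times (SE 0.13, adjusted p = 0.0153), by 0.58 at 12 h (SE 0.17, adjusted p = 0.0333) and by 0.97 at 24 h (SE 0.17, adjusted p = 0.00063), and it was lower at 24 h than at the earlier times by 0.59 (−0.59, SE 0.14, adjusted p = 0.00714). Its AKR/N signals were 878 and 825 in controls, 785 and 807 at 8 h, 816 and 882 at 10 h, 554 and 774 at 12 h, and 702 and 647 at 24 h. In AKR/N 7 of 8 heated arrays lay below both controls, with a mean change of −0.20 (SE 0.13, adjusted p = 0.417) and −0.33 at 24 h (SE 0.17, adjusted p = 0.188). The C57BL/6 24 h call held without any single array. The mean was lost without either control (adjusted p = 0.121 and 0.128), the 12 h call without either control or without the 12 h replicate 2 that stood apart (−0.39, adjusted p = 0.233), and the contrast with earlier times without C57BL/6 24 h replicate 1 (−0.55, adjusted p = 0.0948).

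Probe set 1429106_at gave C57BL/6 signals of 237 and 219 in controls, 151 and 164 at 8 h, 161 and 148 at 10 h, 134 and 115 at 12 h, and 138 and 118 at 24 h. All heated C57BL/6 arrays lay below both controls from 8 h on. It fell there by 0.64 as the mean (SE 0.16, adjusted p = 0.0146), by 0.80 at 12 h (SE 0.20, adjusted p = 0.0177) and by 0.76 at 24 h (SE 0.20, adjusted p = 0.0103), and the 24 h call was lost without C57BL/6 24 h replicate 2 (−0.66, adjusted p = 0.0767), and also when replicate 1 of the C57BL/6 controls was left out (−0.71, adjusted p = 0.0646). In AKR/N it was at 254 and 189 in controls, 94.0 and 163 at 12 h, and 188 and 213 at 24 h, where the groups overlap. The AKR/N fall at 12 h (−0.74, SE 0.20, adjusted p = 0.0474) was lost without any of 18 of the 20 arrays and without the AKR/N control that stood apart came to −0.94 (adjusted p = 0.0605); at 24 h the change was −0.12 (adjusted p = 0.718). The C57BL/6 mean was lost without either control (adjusted p = 0.141 and 0.10), and the 12 h call without either control (adjusted p = 0.0987 and 0.0742) or without 12 h replicate 2 (−0.70, adjusted p = 0.106).

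The 2 dimmest Hspa4l probe sets were not called in any comparison at the settings used here. Probe set 1439093_at ran from 98.3 to 190 over all arrays, with its lowest group means at 12 h in both strains (−0.39 in C57BL/6, adjusted p = 0.0817, and −0.46 in AKR/N, adjusted p = 0.0758, each with an SE of 0.14). It passed at 12 h in C57BL/6 with median centring (−0.52, adjusted p = 0.0307), quantile normalization (−0.42, adjusted p = 0.0475) and the stricter filter on dim probe sets (adjusted p = 0.0457). In AKR/N it passed at 12 h with quantile normalization (−0.49, adjusted p = 0.0478), the stricter filter (adjusted p = 0.0402) and a pseudocount of 64 (−0.35, adjusted p = 0.0493). Probe set 1458385_at ran from 54.9 to 112, with a largest change of 0.56 at 10 h in AKR/N (SE 0.19, adjusted p = 0.131). Set against 1418253_a_at within each array, the log2 ratio of 1449010_at was −2.92 and −2.80 in C57BL/6 controls and ran from −4.12 to −3.06 in the 8 heated C57BL/6 arrays, with no overlap. In AKR/N that ratio was −2.97 and −2.85 in controls and ran from −3.39 to −2.72 after heat, with overlap. For 1429106_at the ratio ran from −4.83 to −4.61 in C57BL/6 controls and from −5.81 to −5.17 after heat. These ratios show unequal change between probe sets of 1 gene and not which of them did not change. The actin ratio rose above both controls at 12 and 24 h in C57BL/6, and was below both at 8, 10 and 24 h in AKR/N. Its part in the ratios between probe sets was not tested.

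**Figure D3:**
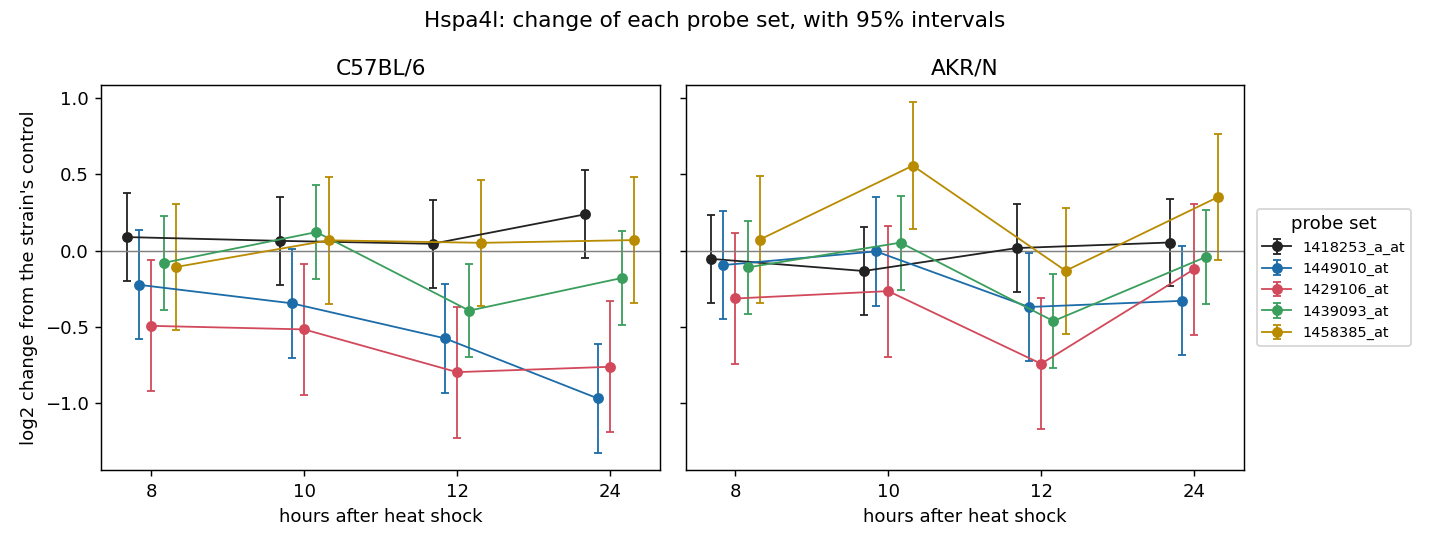
Log2 change from the strain's control (vertical axis) of the 5 Hspa4l probe sets at 8, 10, 12 and 24 h after heat shock, in C57BL/6 and AKR/N. Bars are 95% intervals of the limma fit; at 24 h in C57BL/6 1418253_a_at lies at 0.24 and 1449010_at at −0.97.

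Counted over all 7 probe sets in C57BL/6, 1 rose and 3 fell as the mean of the 4 times, beside 8.45% and 7.46% of all probe sets tested. As 5 of the 7 read Hspa4l, these are counts of probe sets and not of genes. The one that rose was that of Hspa1l, and those that fell were that of Hspa2 and, of Hspa4l, 1449010_at and 1429106_at. At 10 h 1 rose and 1 fell, beside 4.05% and 3.15%. At 12 h 1 rose and 3 fell, beside 7.61% and 7.04%, and at 24 h 1 rose and 3 fell, beside 17.9% and 13.1%. At 24 h against earlier times 1 rose and 2 fell, beside 13.5% and 8.75%. The median of the 7 was −0.13 for the mean and −0.18 at 24 h, beside 0.03 and 0.09 over all probe sets tested. Both medians were the values of 1439093_at, a dim Hspa4l probe set that was not called. No probe set passed at 8 h, where 1 had an unadjusted p under 0.05. In AKR/N none passed for the mean, where 2 had an unadjusted p under 0.05 and 3.9% of all probe sets were called. There 0 passed at 8 h, at 10 h or at 24 h against earlier times (0, 2 and 1 at an unadjusted p under 0.05, with 0.121%, 3.81% and 19.8% of all probe sets called), all by limma. Over all 28000 probe sets 5809 had an unadjusted p under 0.05 for that mean, and 2941, 5266 and 9288 in those comparisons, in that order. In that strain 1 probe set, 1429106_at of Hspa4l, fell at 12 h, where 5.24% of all probe sets were called and 2.1% called lower. The brightest Hspa4l probe set was at 0.02 at that time (adjusted p = 0.963). At 24 h 1 fell, that of Hspa2, where 7.6% were called lower. The median of the 7 in AKR/N was −0.14 for the mean and −0.04 at 24 h, again the values of 1439093_at, beside −0.01 and 0.02 over all. Without AKR/N control replicate 2, fewer member probe sets were called lower at 12 h in both strains. Without C57BL/6 12 h replicate 2, fewer were called lower at 12 h in C57BL/6, and Hspa2 passed for the AKR/N mean (−0.52). Each of these fits leaves 1 array in a group, and calls over all probe sets also move when an array is left out. Fewer calls are therefore not read as a trait of the members.

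Between the unheated strains no member passed the test, by limma, and 0 of the 7 probe sets had an unadjusted p under 0.05 (4.78% of all probe sets were called). The difference, AKR/N minus C57BL/6, was 0.15 for Hspa2 (95% interval −0.24 to 0.54, adjusted p = 0.735), 0.26 for Hspa1l (−0.01 to 0.52, adjusted p = 0.302) and 0.02 for 1418253_a_at of Hspa4l (−0.27 to 0.31, adjusted p = 0.960). Averaged over the 5 conditions, AKR/N exceeded C57BL/6 in Hspa2 by 0.27 (SE 0.08, adjusted p = 0.0279) and in 1449010_at by 0.24 (SE 0.07, adjusted p = 0.0332). In that comparison 22.5% of all probe sets were called and 12.4% were called higher in AKR/N. The Hspa2 call was lost without any of 9 arrays (0.22 to 0.27, adjusted p = 0.0508 to 0.0650) and that of 1449010_at without any of 12, among them C57BL/6 12 h replicate 2 (0.20, adjusted p = 0.0645). Hspa1l did not pass (−0.02, 95% interval −0.14 to 0.10, adjusted p = 0.879).

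Whether heat acted differently by strain was tested directly, as the change in AKR/N minus that in C57BL/6, and no member passed at any time or for the mean. Across all probe sets 1 passed for the mean (0.00357%), 33 at 10 h (0.118%) and 217 at 24 h (0.775%), and 0 at 8 and 12 h, where limma gave 1741 and 2548 an unadjusted p under 0.05. These counts rest on single arrays: without 1 array the 24 h count ran from 2 (without AKR/N 24 h replicate 1, C57BL/6 24 h replicate 1 or replicate 1 of either control) to 293, and the 10 h count from 0 (without replicate 2 of either 10 h group) to 45. At an unadjusted p under 0.05, by limma, 1 of the 7 member probe sets passed for the mean, 0 at 8, 10 and 12 h, and 3 at 24 h. Those at 24 h were that of Hspa1l and, of Hspa4l, 1449010_at and 1429106_at. The largest was that of Hspa1l, at −0.66 (95% interval −1.04 to −0.29, unadjusted p = 0.00214, adjusted p = 0.0901), and for the mean it was −0.34 (−0.64 to −0.04, adjusted p = 0.345). Hspa1l at 24 h passed with a pseudocount of 64 (adjusted p = 0.0229), with a stricter filter on dim probe sets (adjusted p = 0.0421) and with array weights (adjusted p = 0.0494), and without AKR/N control replicate 2 it was −0.65 (adjusted p = 0.140). For Hspa2 the difference was 0.27 at 24 h (−0.28 to 0.82, adjusted p = 0.631), an interval that holds a fall in AKR/N that is equal, smaller or larger. For Hspa4l it was −0.19 (−0.59 to 0.22, adjusted p = 0.664) with 1418253_a_at, 0.64 (0.14 to 1.14, adjusted p = 0.186) with 1449010_at and 0.64 (0.03 to 1.25, adjusted p = 0.271) with 1429106_at. A heat effect called in C57BL/6 and not in AKR/N is therefore not shown to differ between the strains.

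**Figure D4:**
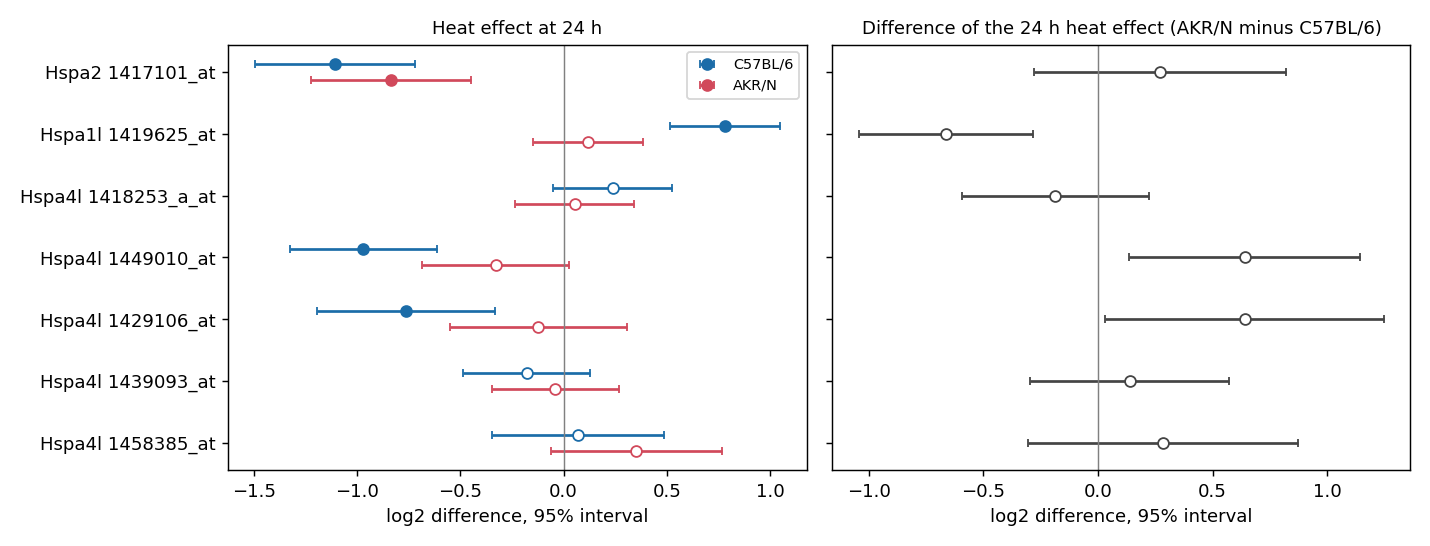
Left, log2 change from control at 24 h for the 7 probe sets in C57BL/6 and AKR/N; right, the difference of that change, AKR/N minus C57BL/6. Points are estimates with 95% intervals of the limma fit, filled where the adjusted p is under 0.05; 4 C57BL/6 points and 1 AKR/N point are filled, and none of the differences.

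Ordered by group mean, Hspa2 was highest in AKR/N controls and lowest in C57BL/6 at 24 h, a span of 1.26 on the log2 scale. Between neighbours in that order 4 of 9 steps had no overlap of arrays, and 1 step, the last, from C57BL/6 at 10 h to C57BL/6 at 24 h (0.32), exceeded the SD within groups of 0.17. The order from high to low was AKR/N control, C57BL/6 control, AKR/N 8 h, C57BL/6 8 h, AKR/N 10 h, AKR/N 12 h, C57BL/6 12 h, AKR/N 24 h, C57BL/6 10 h and C57BL/6 24 h. Hspa1l spanned 0.78 from C57BL/6 24 h to C57BL/6 control, and 3 of 9 steps exceeded its SD within groups of 0.08. Those were the step down from C57BL/6 24 h to AKR/N 12 h (0.15), that from AKR/N 10 h to AKR/N 24 h (0.11) and that from C57BL/6 8 h to C57BL/6 control (0.22). For 1418253_a_at of Hspa4l the span was 0.35, from C57BL/6 24 h to AKR/N 10 h, and 1 of 9 steps, the first (0.15), exceeded the SD within groups of 0.10.

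Among other HSP70 and HSP110 genes, 4 of 11 tested rose for the mean in each strain and 0 fell, where 8.45% of all probe sets were called higher in C57BL/6 and 3.9% were called in AKR/N. At 24 h 5 rose in C57BL/6 and 0 of 11 passed in AKR/N, where 2 had an unadjusted p under 0.05, by limma. At that time 17.9% of all probe sets were called higher in C57BL/6 and 18.2% were called in AKR/N. Genes of the lists are read on their brightest probe set. For the mean the 4 were Hspa8, the constitutive cytosolic HSP70 (1.40 in C57BL/6 and 0.97 in AKR/N, adjusted p = 5.03e-06 and 0.00038), Hsph1, an HSP110 exchange factor (1.08 and 0.96, adjusted p = 0.00050 and 0.00413), and the inducible Hspa1b (5.26 and 2.94, adjusted p = 8.80e-05 and 0.00959) and Hspa1a (4.01 and 2.47, adjusted p = 0.00050 and 0.0236). The list's median was 0.21 in C57BL/6 and 0.23 in AKR/N. Without AKR/N control replicate 2 the AKR/N values of Hspa1b and Hspa1a were 4.27 and 3.45 (adjusted p = 0.00303 and 0.0222). Of 14 exchange factors and other co-chaperones of HSP70, 1 fell for the mean in C57BL/6 and 0 passed in AKR/N, where 1 had an unadjusted p under 0.05, by limma. For the mean 7.46% of all probe sets were called lower in C57BL/6 and 3.9% were called in AKR/N, so these counts are near the shares of all probe sets. At 24 h 2 rose and 1 fell in C57BL/6 (31% of all probe sets called), and 1 rose and 1 fell in AKR/N (18.2% called). The AKR/N count was lower without AKR/N control replicate 2, in a fit that leaves 1 array in that group. The gene that fell for the mean was St13, the HSP70-interacting protein Hip (−0.53, SE 0.15, adjusted p = 0.0262). Of 22 J-domain genes 2 rose in C57BL/6 and 1 fell in AKR/N for the mean, shares near those of all probe sets. They were Dnajb4 (0.61, adjusted p = 0.00135) and Dnaja4 (0.45, adjusted p = 0.00765), in C57BL/6, and Dnajb2 in AKR/N (−0.45, adjusted p = 0.0387), which did not pass without AKR/N control replicate 2 (−0.49, adjusted p = 0.130).

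Genes known as partners or clients of HSPA2 in germ cells were lower where they changed for the mean of the 4 times. Of 9 tested, 3 fell in C57BL/6 for the mean of the 4 times and 1 fell in AKR/N, with list medians of −0.34 and −0.19, where 7.46% of all probe sets were called lower in C57BL/6 and 3.9% were called in AKR/N. Shcbp1l, which encodes a spindle protein of meiotic cells that binds HSPA2, fell by 0.95 in C57BL/6 (SE 0.11, adjusted p = 0.00032) and by 0.52 in AKR/N (SE 0.11, adjusted p = 0.0274; without AKR/N control replicate 2 it was −0.58, adjusted p = 0.0883). Cdk1, the kinase of entry into division, fell by 0.77 in C57BL/6 (SE 0.17, adjusted p = 0.00804) and was at −0.19 in AKR/N (adjusted p = 0.564). Nasp, a histone chaperone, fell by 0.34 in C57BL/6 (SE 0.10, adjusted p = 0.0365) and was at −0.32 in AKR/N (adjusted p = 0.0969). Sycp2, of the synaptonemal complex, was at −0.39 and −0.51 (adjusted p = 0.163 and 0.122). At 24 h Shcbp1l fell by 1.99 in C57BL/6 (SE 0.14, adjusted p = 3.21e-06) and by 0.88 in AKR/N (SE 0.14, adjusted p = 0.00177). At that time 3 of the 9 fell in each strain, beside 13.1% and 7.6% of all probe sets, and in AKR/N 1 rose, Sycp1 of the synaptonemal complex (0.76, adjusted p = 0.0456). The lists share genes. Sycp1 and Sycp3 are also listed as pachytene markers, Tnp1 and Tnp2 as markers of elongating spermatids, and Bag6 as a co-chaperone. The pachytene marker that rose at 24 h in AKR/N is therefore the same Sycp1.

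Of 5 tested heat shock factors and their regulators, 1 rose and 2 fell in C57BL/6 and 1 fell in AKR/N for the mean, where 15.9% and 3.9% of all probe sets were called. Hsfy2, a relative of the heat shock factors in germ cells, rose by 0.57 in C57BL/6 (SE 0.13, adjusted p = 0.00989). Hsbp1, whose product binds HSF1, fell by 0.60 in C57BL/6 (SE 0.10, adjusted p = 0.00178) and by 0.39 in AKR/N (SE 0.10, adjusted p = 0.0435; −0.34 with adjusted p = 0.219 without AKR/N control replicate 2). Hsf5 fell by 0.38 in C57BL/6 (SE 0.11, adjusted p = 0.0267). Hsf2 was at 0.37 and −0.11 (adjusted p = 0.152 and 0.751).

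Markers of germ cell stages moved in the same samples as the members. Of 18 markers of pachytene spermatocytes, the cells in which Hspa2 is made, 6 fell and 1 rose in C57BL/6 for the mean and 10 fell and 1 rose at 24 h, with medians of −0.35 and −0.67. Of all probe sets 7.46% and 13.1% were called lower in these comparisons. For the AKR/N mean 3.9% of all 28000 probe sets were called and 5809 had an unadjusted p under 0.05, by limma. In AKR/N 0 of the 18 markers passed for the mean, where 5 had an unadjusted p under 0.05, by limma, and 7 fell and 1 rose at 24 h (7.6% of all called lower), with medians of −0.22 and −0.42. Their summed signal ran from 41384 to 43561 in C57BL/6 controls and from 34924 to 36047 at 24 h, and in AKR/N from 43875 to 44881 and from 35595 to 36925, so the groups did not overlap in either strain. Piwil1, a germ granule protein, fell by 1.14 in C57BL/6 (SE 0.14, adjusted p = 0.00033), Aurkc, a meiotic kinase, by 0.73 (SE 0.12, adjusted p = 0.00172), Tbpl1, a germ cell relative of the TATA-binding protein, by 0.45 (SE 0.12, adjusted p = 0.0223), and Ovol1 by 0.37 (SE 0.10, adjusted p = 0.0213). Without AKR/N control replicate 2 fewer of these markers were called lower for the C57BL/6 mean and at 24 h in AKR/N. That fit leaves 1 array in a group, and calls over all probe sets also move when an array is left out. Fewer calls are therefore not read as a trait of these markers.

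Of 18 markers of round spermatids, 4 rose and 1 fell in C57BL/6 for the mean (15.9% of all probe sets called) and 5 rose and 4 fell at 24 h (31% called), among them Tssk2 and Tssk6, kinases of spermatids (0.49 and 0.52 for the mean, adjusted p = 0.00458 and 0.00449), and Actl7a (0.53, adjusted p = 0.00728), which rose, and Spag6l, of the sperm axoneme (−0.76, adjusted p = 0.00101), which fell. In AKR/N 0 passed for the mean, where 7 had an unadjusted p under 0.05, by limma, and 2 rose and 1 fell at 24 h (18.2% called). Over all 28000 probe sets 5809 had an unadjusted p under 0.05 for the AKR/N mean and 3.9% were called. Of 16 markers of elongating spermatids, 4 rose in C57BL/6 for the mean and 6 at 24 h (0 fell; 8.45% and 17.9% of all called higher), and in AKR/N 0 for the mean, where 5 had an unadjusted p under 0.05, by limma, and 1 at 24 h. These were led by Fscn3 (0.64, adjusted p = 0.00361), Cabs1 (0.55, adjusted p = 0.00604), Spata18 (0.45, adjusted p = 0.00748) and Akap4 of the sperm tail (0.32, adjusted p = 0.0474) in C57BL/6. Their summed signal ran from 94661 to 101427 in C57BL/6 controls and from 118789 to 122024 at 24 h, and in AKR/N from 100750 to 104082 and from 101567 to 102409, where the ranges overlapped. With arrays centred on their medians 2 and 3 elongating markers rose in C57BL/6 for the mean and at 24 h. The part of these cell mixtures in the changes of Hspa2, Hspa1l and Hspa4l was not tested.

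Markers of other cell types were called as well. In C57BL/6 for the mean, where 8.45% of all probe sets were called higher, 4 of 11 Sertoli cell markers rose, led by Clu (0.59, adjusted p = 0.00092) and Ctsl (0.46, adjusted p = 0.00511), 2 of 6 Leydig cell markers rose, Star (2.40, adjusted p = 6.00e-06) and Cyp11a1 (0.73, adjusted p = 0.00198), and 4 of 12 spermatogonial markers rose and 1 fell, Stra8 (0.89, adjusted p = 0.00053), Sall4 (0.80, adjusted p = 0.0182), Dazl (0.49, adjusted p = 0.0127) and Id4 (−0.90, adjusted p = 0.00169) among them. In AKR/N for the mean 0 Sertoli and 0 Leydig markers passed, where 3 of each had an unadjusted p under 0.05, by limma, and 1 spermatogonial marker fell, Sohlh1 (−0.48, adjusted p = 0.0396), named after its value was seen. The Sohlh1 call did not hold without AKR/N control replicate 2, in a fit that leaves 1 array in that group. For the AKR/N mean 3.9% of all probe sets were called. At 24 h in AKR/N 3 Sertoli markers rose and 2 Leydig markers fell, where 18.2% of all probe sets were called and 7.6% were called lower. Of 12 spermatogonial markers 3 were called there, counted in either direction. At 24 h in C57BL/6 5 of 11 Sertoli, 5 of 6 Leydig and 4 of 12 spermatogonial markers were called, counted in either direction, beside 31% of all probe sets. The summed Leydig signal ran from 1911 to 2151 in C57BL/6 controls and from 2111 to 2425 at 24 h. In AKR/N it ran from 4130 to 4279 in controls and from 2444 to 2555 at 24 h. In controls 5 of the 6 Leydig markers were higher in AKR/N than in C57BL/6, a comparison in which 4.78% of all probe sets were called. Of 11 macrophage markers 0 passed for the mean in either strain, by limma, with 5 and 1 at an unadjusted p under 0.05, while at 24 h 5 rose in C57BL/6. Of all probe sets 17.9% were called higher at 24 h in C57BL/6, and 18.2% were called at 24 h in AKR/N. In AKR/N 4 rose at 24 h. These calls did not hold without AKR/N control replicate 2, in a fit that leaves 1 array in that group. The summed macrophage signal ran from 905 to 916 in C57BL/6 controls and from 1420 to 1511 at 24 h. In AKR/N it ran from 1301 to 1389 in controls and from 1832 to 1955 at 24 h, so the groups did not overlap in either strain. The part of these cell types in the members' changes was not tested.

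Genes whose pattern was most like that of a member were chosen by the smallest root mean square (RMS) difference of centred log2 values over the 20 arrays among 15784 other genes. For Hspa2, whose SD over the arrays was 0.39, they were Wfdc15a (RMS 0.16), Phpt1 (0.16), 0610009L18Rik (0.16), Prc1 (0.17) and D030056L22Rik (0.17). For Hspa1l, with an SD of 0.23, they were Rangap1 (0.08), 4930571K23Rik (0.08), Herpud2 (0.09), Ap2b1 (0.09) and Abhd5 (0.09). For Hspa4l (1418253_a_at), with an SD of 0.11, they were Ropn1 (0.07), Fxr1 (0.07), Oaz3 (0.08), Odf1 (0.08) and Tpt1 (0.08). An RMS close to the member's own SD means that the gene adds little beyond a flat course, and the gap between both was smallest for Hspa4l. The 5 genes most like Hspa2 were lower after heat in both strains, with mean differences from −0.71 to −0.56 in C57BL/6 and from −0.50 to −0.33 in AKR/N. As they were picked for likeness, these values are a description.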

How the data were processed

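Total RNA of 20 testis samples was labelled with biotin after cDNA synthesis and hybridised to 1 array each, per the labels' protocols. The values are 1 intensity per probe set and array on a linear scale, as deposited by the authors. Software and scaling: not given in the sources used here. On each array the mean after trimming 2% at each end was 125.001, so the arrays share a scale. Intensities were used as deposited, with no further background correction or normalization, and log2(signal + 16) was taken. Of 45101 probe sets 64 were controls, 932 had several genes and 9160 none. Single-gene probe sets whose highest group mean reached the 40th percentile (signal 17.5) were tested, 28000 of 34945, and all 7 member probe sets passed. A model with 1 mean per group was fitted in limma 3.58.1 (R 4.3.3) to all 20 arrays, with Benjamini-Hochberg adjustment over the tested probe sets of each comparison, and was tested on simulated data.

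The members and gene lists were chosen with earlier results of these data known. All member probe sets are named, and from each list up to 4 genes with the smallest adjusted p in the mean heat effect of either strain; further genes and 24 h values were named after their values were seen. Alternatives were the pseudocount, the filter, median centring, quantile normalization, 1 probe set per gene, a fit per strain, array weights, a replicate block and each array left out. List results without the arrays that stood apart, and list counts under other scalings, were added after seeing the data. The number of arrays limits the precision. Over 45 pairs of groups, same-numbered replicates deviated with correlations from −0.24 to 0.25, and 3 were over 0.1. These values neither show nor exclude that same-numbered samples were handled together, and the main fit did not pair them.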

Additional observations from a re-analysis of the deposited data

How the results depend on the processing

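For the brightest probe set of each gene, 523 of 549 values under other settings kept their side of the threshold, and 1085 of 1140 did with 1 array left out. Among these, 19 and 18 values that were not called changed sign, and no called value did. The causes were not tested. Hspa2 at 12 h in C57BL/6 no longer passed at −0.57 with a pseudocount of 1, no filter, a fit per strain or array weights (adjusted p = 0.0638, 0.0635, 0.130 and 0.0739), nor at −0.56 with quantile normalization (0.0564). With the replicate number as a block it was −0.57 (adjusted p = 0.0611), and the block changed no other call of a brightest probe set. In a fit per strain Hspa2 at 10 h (−0.79) and at 24 h against earlier times (−0.58), and Hspa1l likewise (0.54 and 0.33), no longer passed. With median centring Hspa1l at 10 h, 12 h and 24 h against earlier times was 0.52, 0.46 and 0.24, none past the threshold. In AKR/N, Hspa2 passed for the mean, at 12 h and at 24 h against earlier times with a pseudocount of 64 (−0.51, −0.56 and −0.41) and a 60th percentile filter (−0.52, −0.58 and −0.42), and for the last also with 1 probe set per gene, a fit per strain or array weights (−0.42). Hspa1l in AKR/N at 12 h passed with a pseudocount of 64 (0.37), and its strain difference at 24 h passed at −0.65 with that, and at −0.66 with the stricter filter or array weights. Leaving out 1 array, Hspa2 in C57BL/6 ran from −0.74 to −0.61 for the mean, −1.01 to −0.57 at 10 h, −0.83 to −0.32 at 12 h and −0.66 to −0.49 at 24 h against earlier times. In AKR/N it ran from −0.55 to −0.50 for the mean, −0.60 to −0.55 at 12 h, −0.94 to −0.74 at 24 h and −0.52 to −0.32 at 24 h against earlier times, and between strains over 5 conditions from 0.22 to 0.32. Hspa1l in C57BL/6 ran from 0.42 to 0.64 for the mean, 0.43 to 0.64 at 10 h, 0.48 to 0.70 at 12 h and 0.30 to 0.37 at 24 h against earlier times. Of the dimmer Hspa4l probe sets, 1449010_at lost its C57BL/6 12 h call in a fit per strain (−0.58, adjusted p = 0.0621) and its call over 5 conditions with median centring (0.22, adjusted p = 0.129). Over all probe sets, calls for the AKR/N mean were 1093, against 1879 with a pseudocount of 64, 1842 with the stricter filter, 644 with median centring, 678 with 1 probe set per gene, 200 in a fit per strain and 668 with array weights. Without 1 array the AKR/N mean ran from 57 (AKR/N control replicate 1) to 1338, AKR/N at 24 h, 5106, from 1102 (AKR/N 24 h replicate 2) to 5529, the C57BL/6 mean, 4457, from 985 (C57BL/6 control replicate 2) to 4660 and C57BL/6 at 24 h, 8689, from 5480 to 9032. Calls at 10 h in C57BL/6 were 2015, against 1238 with median centring and 880 in a fit per strain. Median centring moved the share of calls that were higher from 57.8% to 44.3% at 24 h and from 53.1% to 42.6% for the mean in C57BL/6.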
